A study of Homo sapiens with 22 samples.

Results

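BAF sites of AN3CA cells that carried the CBR truncation of ARID1A were set against those of AN3CA cells that carried an empty vector (Empty). A BAF site was a SMARCA4 peak that met a SMARCC1 peak of the same cells by at least 1 bp on chromosomes 1 to 22. CBR cells had 6022 such sites, of 45076 summed over the 7 pairs of SMARCA4 and SMARCC1 libraries, and the comparison drew on 6 of the 22 libraries. AN3CA is an established human endometrial carcinoma line. The labels give CBR as a truncation mutant of ARID1A, with 1 library per antibody, and Empty as the vector control, with 2 replicates per antibody. They do not say which residues CBR keeps, how much of the protein was made, or whether the replicates were separate cultures, so a spread or p-value here covers the difference between these libraries, which may be technical. The other constructs in the same line, each with 1 library per antibody, were ARID1A with a mutated ARID domain (DBDmut), a truncation called delIDR1, a hybrid with the DDX4 disordered region (DDX4) and wild type ARID1A (WT). They are used here to describe the CBR sites.

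BAF complexes are chromatin remodelers of the SWI/SNF family that slide or eject nucleosomes and so open regulatory DNA. SMARCA4 is a catalytic ATPase of the complex, SMARCC1 is a core subunit around which the complex assembles, and ARID1A is a subunit of the canonical form, cBAF, with a DNA-binding ARID domain, long disordered stretches and a C-terminal part through which it joins the complex. Loss of ARID1A is frequent in endometrial cancers, and cBAF is known above all from enhancers, where acetylation of histone H3 at lysine 27 (H3K27ac) marks active elements. CUT&Tag maps such proteins and marks with an antibody that tethers a transposase, which cuts and tags the DNA nearby. A peak is an average over many cells, so fewer occupied cells and weaker occupation per cell cannot be told apart.

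CBR cells had more SMARCA4 peaks and fewer SMARCC1 peaks than either Empty replicate. The SMARCA4 list held 12616 peaks in CBR cells, against 5453 and 9210 in the Empty replicates (mean 7331.5 ± 2657, SD, n = 2). The SMARCC1 list held 11744 peaks in CBR cells, against 13336 and 15126 in Empty cells (mean 14231 ± 1266, SD, n = 2). The differences, 5284.5 peaks for SMARCA4 and -2487 for SMARCC1, had p = 0.667 each in a two-sided exact permutation test, which cannot go below 0.333 with 1 library against 2. CBR and Empty replicate 1 share a stamp in their peak names that Empty replicate 2 does not, and against that replicate alone the differences were 7163 and -1592. Depth, given as fragments per kb of background derived from the peak lists, was 1.19 for SMARCA4 in CBR cells, against 1.23 and 1.95 in Empty cells. It was 2.87 for SMARCC1 in CBR cells, against 2.10 and 2.45 in Empty cells.

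Many SMARCA4 peaks of CBR cells were narrow and weak and lay where SMARCC1 had no peak. Of the SMARCA4 peaks, 47.7% met a SMARCC1 peak in CBR cells (95% Wilson interval 46.9 to 48.6%), against 75.2% and 70.2% in the Empty replicates. The strongest peaks did not show this gap. Among the 1000 SMARCA4 peaks of highest -log10 q, 96.3% met a SMARCC1 peak in CBR cells, against 92.6% and 96.3% in Empty cells. Beyond the strongest 5000, the share was 26.96% of 7616 peaks in CBR cells, against 26.7% of 453 and 46.0% of 4210 in Empty cells. The CBR list thus held a long tail that Empty replicate 1 lacked. A median of 8 fragments covered the summit of a SMARCA4 peak in CBR cells, against 12 and 14 in Empty cells, and 58.6% of CBR peaks had fewer than 10, against 35.8% and 29.6% of the Empty peaks.

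**Figure D1:**
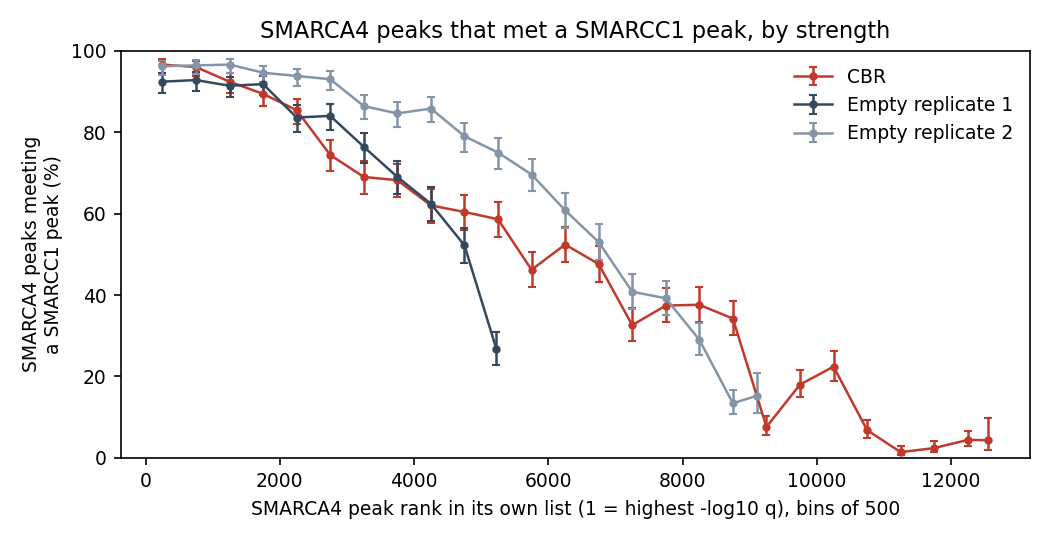
Share of SMARCA4 peaks that met a SMARCC1 peak of the same cells (y axis, percent, Wilson 95% intervals) in bins of 500 peaks ordered by -log10 q (x axis, rank), for CBR and both Empty replicates. CBR lies at 96.6% in the strongest bin, close to Empty, and its list of 12616 peaks runs on past both Empty lists at shares below 25%.

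The SMARCA4 peaks of CBR cells without SMARCC1 numbered 6594, against 1352 and 2742 in the Empty replicates. They were 123 bp wide and covered by 5 fragments in the median, against 152 bp and 7 fragments in Empty replicate 1 and 221 bp and 8 fragments in replicate 2. Of the CBR ones, 32.1% met an H3K27ac peak of CBR cells, against 50.5% and 49.3% of the Empty ones in their own H3K27ac lists. No subunit of either Empty replicate had a peak at 4473 of them (67.8%), and 13.9% of those 4473 were acetylated in CBR cells. SMARCC1 peaks without SMARCA4 numbered 5751 in CBR cells, against 9272 and 8634 in Empty cells. A SMARCC1 peak had a SMARCA4 peak with it in 51.0% of cases in CBR cells, against 30.5% and 42.9% in Empty cells. The requirement for both subunits therefore set aside most SMARCA4 peaks of CBR cells, and the BAF sites described next are those that remained.

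The 6022 BAF sites of CBR cells compare with 4101 and 6468 in the Empty replicates. At 2505 of them (41.6%, 40.4 to 42.8%) both subunits had peaks in both Empty replicates, and these are called shared. At 1333 (22.1%) both subunits had peaks in 1 Empty replicate but not in the other. At 1379 (22.9%) some subunit peak was there in Empty cells but no replicate had both, and these are called partly occupied. At 805, which is 13.4% (12.53 to 14.3%), neither subunit had a peak in either Empty replicate, and these are the CBR-only sites. The intervals cover counting error only, and the CBR shares have no replicate check.

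Set against 1 Empty replicate at a time, the share of CBR sites without a subunit peak lay above what the Empty replicates showed between themselves, by less in one comparison than in the other. Against Empty replicate 1 alone, which has the same stamp as CBR, 1226 CBR sites (20.4%) had no subunit peak, and against Empty replicate 2 alone 1212 (20.1%) had none. By the same rule, 982 sites of Empty replicate 2 (15.2%) had no subunit peak in replicate 1, and 170 sites of replicate 1 (4.15%) had none in replicate 2. Against both Empty replicates, the other constructs had own shares of 28.5% for DBDmut (2753 of 9670), 17.8% for delIDR1 (807 of 4527), 1.25% for DDX4 (59 of 4703) and 45.1% for WT (4322 of 9585). These comparisons all use the same Empty lists.

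Where Empty cells had peaks of only a single subunit, the one without a called peak was mostly SMARCA4. Of the 6022 CBR sites, 1147 (19.0%, 18.1 to 20.1%) had an Empty SMARCC1 peak and no Empty SMARCA4 peak, whereas 110 (1.83%) had the reverse. Empty SMARCC1 peaks lay at 76.1% and 78.0% of CBR sites in replicates 1 and 2, and Empty SMARCA4 peaks at 53.3% and 57.5%. The Empty SMARCC1 lists were also the longer ones, with 13336 and 15126 peaks, against 5453 and 9210 for SMARCA4, and the part of list length in this order was not tested.

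CBR-only sites were weaker and narrower than shared sites in the CBR lists. The classes rest on overlap with called Empty peaks, which wide and strong peaks meet more readily, so these values describe the classes and carry no test. The median SMARCA4 fold over local background was 6.61 at CBR-only sites, 7.11 at partly occupied sites, 7.78 at sites of 1 Empty replicate and 9.70 at shared sites. For SMARCC1 the medians were 7.38 at CBR-only sites and 9.17 at shared sites. In fragments at the summit, CBR-only sites had a median of 8 for SMARCA4 and 11 for SMARCC1, against 17 and 21 at shared sites. The SMARCA4 peak was 135 bp wide in the median at CBR-only sites, with quartiles of 110 and 175 bp, and 240 bp wide at shared sites. Both subunits lay close together in each class, with a median of 36 bp between the summits at CBR-only sites and 29 bp at shared sites.

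The CBR-only share went up steadily as sites grew weaker. With the 6022 sites ordered by their summed rank in both CBR lists and divided into 5 equal parts, it was 2.24% in the strongest part, then 5.98%, 13.8% and 16.4%, and 28.5% in the weakest. Shared sites made up 76.3% of the strongest part and 14.3% of the weakest. Sites of Empty replicate 2 without a subunit peak in replicate 1 were 0.0773% of its strongest part and 48.1% of its weakest. Those sites had to miss replicate 1 alone, whereas CBR-only sites had to miss both replicates, so the courses are not like for like. Over all sites and against replicate 1 alone, the share was 20.4% for CBR and 15.2% for Empty replicate 2. The course by strength against replicate 1 alone was not computed for CBR. In the strongest part, CBR at 2.24% lay above Empty replicate 2 at 0.0773% and above DDX4, at 0 of 941 sites. It lay below delIDR1 at 8.39%, DBDmut at 10.1% and WT at 23.9%.

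**Figure D2:**
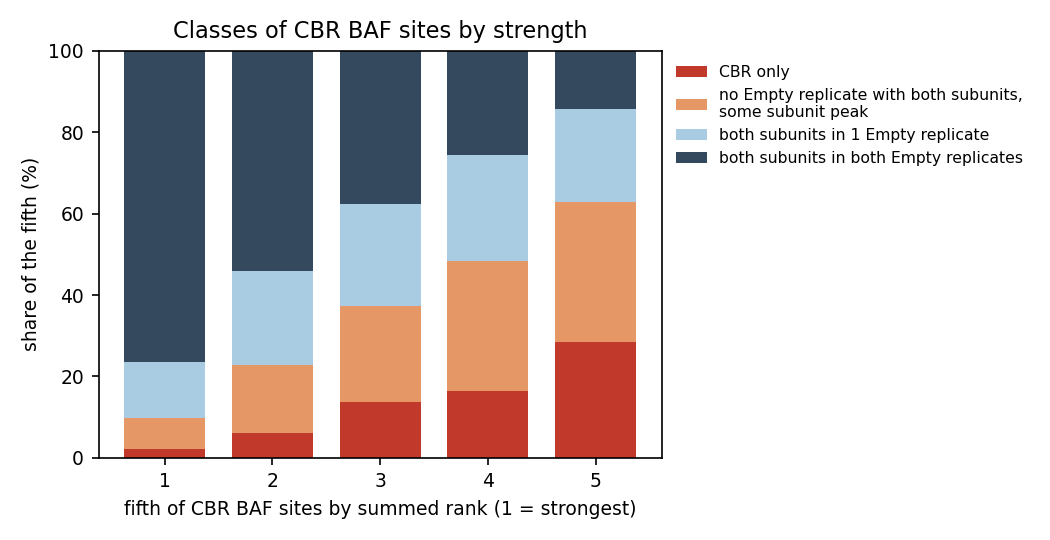
Make-up of the 6022 CBR BAF sites (y axis, percent) in 5 equal parts from strongest to weakest by summed rank in the CBR SMARCA4 and SMARCC1 lists (x axis). CBR-only sites (red) take 2.24% of the strongest part and 28.5% of the weakest, and shared sites (dark) take 76.3% and 14.3%.

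**Figure D3:**
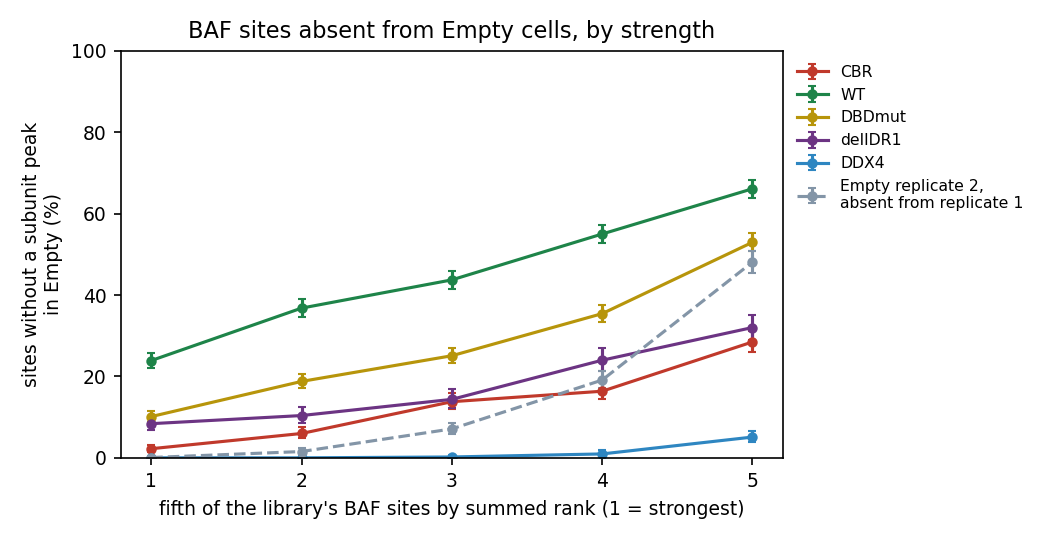
Share of each construct's BAF sites without a SMARCA4 or SMARCC1 peak in either Empty replicate (y axis, percent, Wilson 95% intervals) in 5 equal parts by strength (x axis), with sites of Empty replicate 2 absent from Empty replicate 1 as a dashed line. CBR starts at 2.24% in the strongest part, above the dashed line at 0.0773%, and ends at 28.5% in the weakest, below the dashed line at 48.1%. The dashed line is set against Empty replicate 1 alone and the other lines against both replicates, so their levels are not like for like.

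Most CBR-only sites lay in chromatin that was acetylated in CBR cells, and most of those were also acetylated in Empty cells. An H3K27ac peak of CBR cells met 492 of the 805 CBR-only sites (61.1%, 57.7 to 64.4%). Peaks of the Empty H3K27ac lists met 364 (45.2%) in replicate 1 and 450 (55.9%) in replicate 2. Over all 6022 CBR sites, 82.2% met H3K27ac in CBR cells, against 81.8% and 87.0% in Empty cells. Among shared sites the figures were 93.4% in CBR cells, against 95.4% and 97.1% in Empty cells, and among partly occupied sites 71.0% in CBR cells, against 71.9% and 80.8%. In the other constructs, H3K27ac met 54.5% of the CBR-only sites in DBDmut, 53.5% in delIDR1, 48.2% in DDX4 and 55.7% in WT cells, against 80.0%, 77.3%, 81.4% and 82.5% of all 6022 CBR sites in the same order. CBR-only sites were thus the one class of the 4 in which H3K27ac peaks were more frequent in CBR cells than in either Empty replicate. The H3K27ac list held 40271 peaks in CBR cells, against 35429 and 90766 in Empty replicates 1 and 2.

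**Figure D4:**
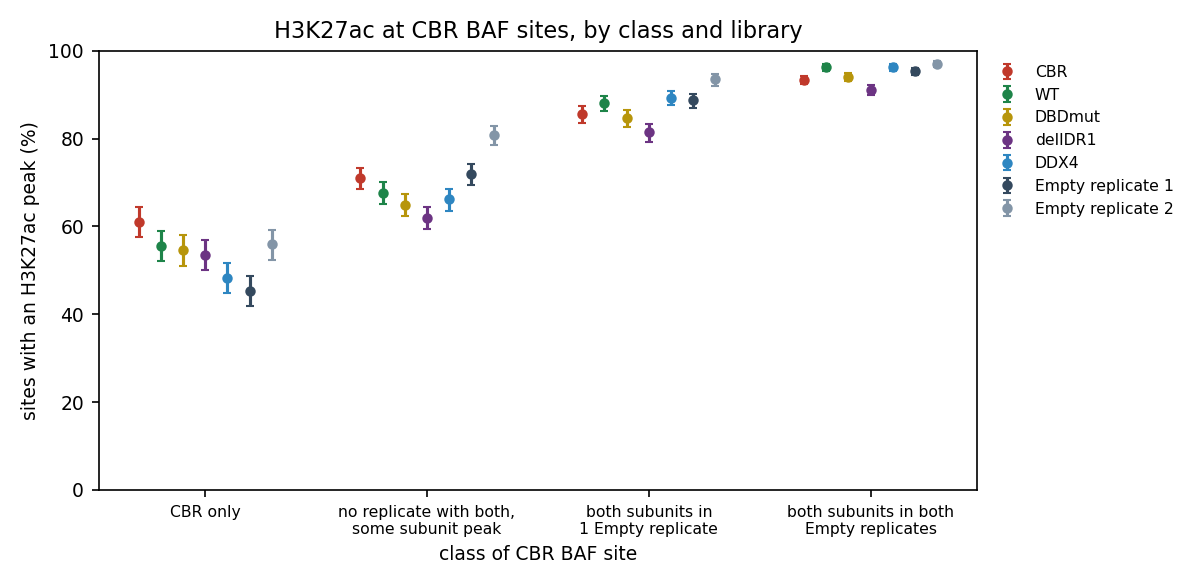
Share of CBR BAF sites that met an H3K27ac peak (y axis, percent, Wilson 95% intervals) in each class of site (x axis), for CBR, the other 4 constructs and both Empty replicates. At CBR-only sites CBR has the highest point at 61.1%, with Empty at 45.2% and 55.9%, and at shared sites all libraries lie above 90%.

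Site by site, 270 CBR-only sites were acetylated in CBR cells and in both Empty replicates, and 393 in CBR cells and at least 1 Empty replicate. At 99 sites the CBR acetylation had no counterpart in Empty cells, at 116 sites Empty cells had acetylation that CBR cells lacked, and at 197 none of the 3 lists had a peak. Of the 296 CBR-only sites without an Empty H3K27ac peak, 99 (33.4%, 28.3 to 39.0%) had one in CBR cells. Of the 335 other CBR BAF sites without an Empty H3K27ac peak, 16 (4.78%) had one in CBR cells, and over all 631 such sites it was 115 (18.2%). With the longer H3K27ac list of Empty replicate 2 set aside, the shares were 45.4% of 441 CBR-only sites and 30.6% of 653 other sites, so the gap between the classes was much smaller. With each H3K27ac list held to its 35429 strongest peaks, they were 38.4% of 341 and 8.46% of 390. With every SMARCA4 peak taken as a site, SMARCC1 not asked for, they were 5.37% of 4265 and 4.90% of 245, so there was no such gap. These H3K27ac lists are each 1 library per replicate, and the values carry no test.

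Among CBR-only sites without Empty H3K27ac, acetylation in CBR cells was most frequent where WT cells had peaks of both subunits. Of the CBR-only sites without Empty H3K27ac, CBR cells had an H3K27ac peak at 62 of the 86 with both subunits in WT cells (72.1%, 61.8 to 80.5%), at 20 of the 61 with 1 subunit in WT cells (32.8%) and at 17 of the 149 with neither (11.4%, 7.25 to 17.5%). The intervals count sites within single libraries, cover counting error only and are no test. The same order was seen at partly occupied sites, with 15.1% of 53, 4.12% of 97 and 1.35% of 74. Over all CBR sites it was 34.0% of 212, 12.6% of 191 and 8.33% of 228. At sites with both subunits in 1 or 2 Empty replicates only 3 of 111 were acetylated, too few to show an order. These low shares depended on the long H3K27ac list of Empty replicate 2. Against that of replicate 1 alone, they were 28.2% of 387 partly occupied sites, 33.1% of 151 sites of 1 Empty replicate and 35.7% of 115 shared sites. For CBR-only sites it was 45.4% of 441. The split by WT subunits was redone neither without replicate 2 nor among sites of like strength. At the 99 sites acetylated in CBR but not in Empty cells, H3K27ac peaks were also present at 75 in DBDmut, 80 in delIDR1, 49 in DDX4 and 78 in WT cells. Over all 805 CBR-only sites, H3K27ac met 54.5%, 53.5%, 48.2% and 55.7% in the same order. Both subunits had peaks at 56 of the 99 in DBDmut, 37 in delIDR1, 1 in DDX4 and 62 in WT cells. Over all 805 the shares with both subunits were 28.1%, 15.8%, 2.11% and 29.9% in the same order, so the DDX4 count was near its share.

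**Figure D5:**
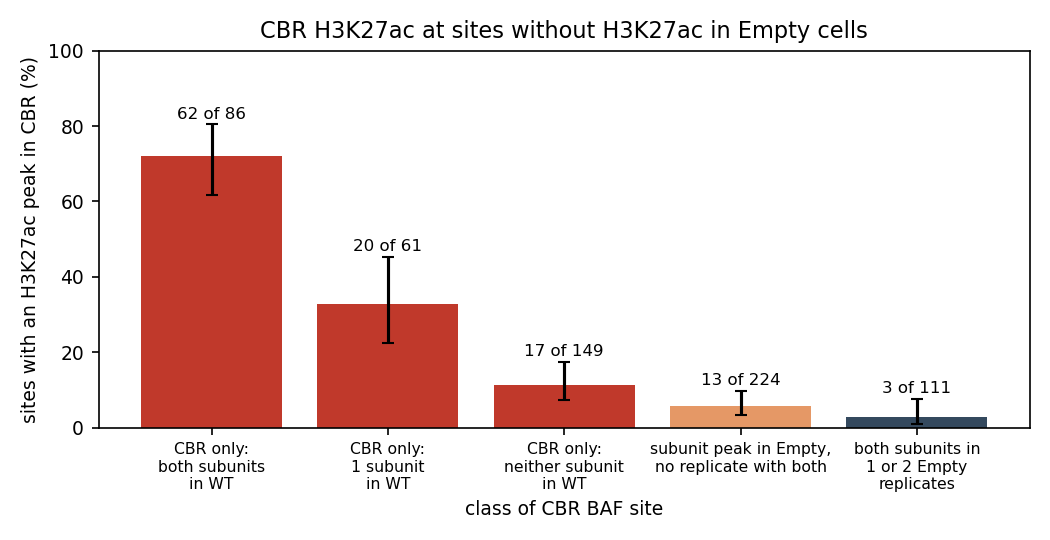
Share of CBR BAF sites with an H3K27ac peak in CBR cells (y axis, percent, Wilson 95% intervals, counts above the bars) among sites without an H3K27ac peak in either Empty replicate, for CBR-only sites split by the subunits WT cells had there and for the other classes (x axis). The bars stand at 72.1%, 32.8% and 11.4% for CBR-only sites with both subunits, 1 subunit and neither subunit in WT, and at 5.80% and 2.70% for sites with Empty subunit peaks. Against the H3K27ac list of Empty replicate 1 alone, not drawn, the classes with Empty subunit peaks stood at 28.2%, 33.1% and 35.7%.

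By comparison with the other constructs' own sites, those of CBR were the least often acetylated. H3K27ac of the same cells met 61.1% of the sites found in CBR and not in Empty, 86.6% of those of DBDmut, 91.6% of delIDR1, 83.1% of DDX4 and 89.3% of WT. Among the own sites without Empty H3K27ac, the share acetylated was 33.4% in CBR, 86.6% in DBDmut (of 1984), 92.5% in delIDR1 (of 548) and 87.3% in WT (of 3234). In DDX4 cells there were 6 such sites, of which 2 were acetylated. Between the Empty replicates, own H3K27ac met 67.1% of the replicate 1 sites absent from replicate 2, and 95.4% of the reverse. Where the other replicate had no H3K27ac, the shares were 20.4% (10 of 49) and 86.1% (235 of 273). Against Empty replicate 2 alone the CBR values were 59.2% and 27.2%, and against replicate 1 alone 66.1% and 44.5%. By strength, H3K27ac met 66.7% of the CBR-only sites in the strongest part of CBR sites, 76.4%, 69.9% and 65.5% in the next, and 50.7% in the weakest.

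Seen from the H3K27ac list, few of the peaks that CBR cells had and Empty cells lacked lay at BAF sites. Of the 40271 H3K27ac peaks of CBR cells, 8243 (20.5%) had no counterpart in the H3K27ac lists of Empty cells. A CBR SMARCA4 or SMARCC1 peak met 371 of these (4.50%), a CBR BAF site 114 (1.38%) and a CBR-only site 97 (1.18%). Of the other H3K27ac peaks of CBR cells, 14.8% met a BAF site.

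Some CBR-only sites were BAF sites of WT cells as well, but they covered little of what WT cells had. Both subunits had WT peaks at 241 of the 805 (29.9%, 26.9 to 33.2%), against 62.3% of all 6022 CBR sites. Both had peaks at 226 (28.1%) in DBDmut cells, against 70.3% of all, at 127 (15.8%) in delIDR1 cells, against 47.6%, and at 17 (2.11%) in DDX4 cells, against 51.8%. In the other direction, 234 of the 4322 sites found in WT and not in Empty cells (5.41%) met a CBR-only site. The DDX4 hybrid thus had both subunits at a slightly larger share of all CBR sites than delIDR1, and at a much smaller share of the CBR-only ones. The DDX4 libraries carry another stamp than those of CBR, DBDmut, delIDR1 and WT, so construct and stamp cannot be told apart in the DDX4 values.

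The CBR-only sites that WT cells also occupied were the stronger and more acetylated ones. This split rests on overlap with called WT peaks, which wide and strong peaks meet more readily, so the values describe it and carry no test. Of CBR-only sites, 44.4% in the strongest part of CBR sites and 19.8% in the weakest had both subunits in WT. H3K27ac of CBR cells met 66.7% and 50.7% of them in the same parts, and acetylation was not compared at like strength. The 241 sites with both subunits in WT had a median SMARCA4 width of 153 bp and a median fold of 7.24, against 127.5 bp and 6.25 for the 356 sites with neither subunit in WT. H3K27ac met 83.4% of the 241 in CBR cells, against 47.7% and 56.8% in Empty cells, and 92.5% in WT cells. For the 356 sites it was 45.8% in CBR cells, against 38.8% and 50.6% in Empty cells, and 28.7% in WT cells. At the 241 sites the CBR share thus lay above both Empty replicates, and at the 356 it lay between them.

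The CBR-only sites differed in which other constructs had both subunits. At 486 CBR-only sites (60.4%) no other construct had both subunits, against 19.9% of all 6022 CBR sites. Both subunits were found in WT, DBDmut and delIDR1 cells but not DDX4 cells at 82 sites, in WT and DBDmut cells only at 72, in WT cells only at 65, in DBDmut cells only at 47, and in all 4 at 8. These patterns were not counted over all 6022 CBR sites. BAF sites numbered 9670 in DBDmut and 9585 in WT cells, against 4527 in delIDR1 and 4703 in DDX4 cells, and the part of these numbers in the order was not tested. At 214 (26.6%) no other construct had a peak of either subunit, against 5.10% of all CBR sites, and 44.4% of those 214 met H3K27ac in CBR cells.

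The 3 strongest CBR-only sites by summed rank were narrow sites near the ends of the mapped sequence, without H3K27ac in CBR cells. The first, chr19:59118869-59118981 in hg19, had SMARCA4 and SMARCC1 folds of 35.1 and 33.5 over 113 bp and lay 0.002 kb from the end of the last peak of chromosome 19. The next, chr2:243152481-243152585, had folds of 24.8 and 20.8 over 105 bp, and then chr21:48119784-48119888, had 20.2 and 21.7 over 105 bp. WT cells had a SMARCA4 peak without SMARCC1 at all 3. DDX4 cells had a SMARCC1 peak at the sites on chromosomes 19 and 2, and DBDmut cells had a SMARCA4 peak at the one on chromosome 19. Empty replicate 1 had an H3K27ac peak at the sites on chromosomes 19 and 2, and Empty replicate 2 had none at all 3. Within 50 kb of the first or last peak of a chromosome lay 4 CBR-only sites (0.497%) and 27 shared sites (1.08%), so such ends were rare in both classes.

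Among the other strongest CBR-only sites, acetylation followed the presence of the complex in some and not in others. At chr10:91226464-91226686, CBR cells had 25 SMARCA4 and 36 SMARCC1 fragments at the summits, with folds of 16.7 and 17.2, and an H3K27ac peak. Empty cells had no subunit and no H3K27ac peak there, while DBDmut, delIDR1 and WT cells had both subunits and H3K27ac and DDX4 cells had SMARCC1 and H3K27ac. At chr7:158316339-158317187, a wide site of 849 bp with folds of 23.4 and 18.3, H3K27ac was found in CBR cells and in no other library, and the other subunit peak there was SMARCA4 in delIDR1 cells. The site chr10:134588387-134588666, with folds of 17.7 and 14.2, also had H3K27ac in CBR cells alone. At chr9:115629053-115629990, of 938 bp with folds of 17.4 and 12.47, the 4 other constructs all had both subunits and H3K27ac, and Empty cells had H3K27ac in both replicates without either subunit. All 7 H3K27ac lists also had a peak at chr11:1467372-1467667, where the folds in CBR cells were 17.7 and 14.4 and the other subunit peak was SMARCA4 in delIDR1 cells. The last of the 10 were chr1:227975797-227975917, with folds of 14.1 and 15.5, and chr2:86268264-86268529, with 17.7 and 12.7. Both had H3K27ac in CBR cells and in Empty replicate 2 but not in Empty replicate 1.

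Each of the 10 strongest CBR-only sites had a subunit peak in at least 1 other construct. Sites found in CBR cells and in no other construct thus ranked below them by selection, which is no result about these sites. The strongest by summed rank, chr16:85350126-85350240, had folds of 11.5 and 13.4 and H3K27ac in CBR and both Empty replicates. It was followed by chr9:138882612-138882724, chr15:49406478-49406589 and chr12:34148825-34149103, with no H3K27ac in any of those 3 libraries, and by chr2:7273385-7273743, with H3K27ac in CBR cells and Empty replicate 2. The SMARCA4 folds of these 5 sites lay between 9.27 and 11.5.

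The widest CBR-only site, singled out after its values were seen, was chr1:27105602-27107003, where the SMARCA4 peak spanned 1402 bp. Its SMARCA4 fold was 7.49 with 37 fragments at the summit, its SMARCC1 fold was 7.97 with 69, and its H3K27ac peak reached 390 fragments. That was the highest pileup among the 99.97% of CBR H3K27ac peaks for which one could be derived. The remaining peaks were not ranked and may be higher. H3K27ac peaks at nearly the same bounds reached 52 fragments in DBDmut, 81 in delIDR1, 119 in DDX4 and 52 in WT cells. Empty replicate 2 had one with 35 fragments and Empty replicate 1 had none. The libraries with subunit and H3K27ac peaks there are those that carry ARID1A sequence, whose own gene is on chromosome 1. Whether the interval belongs to that gene was not tested, and chromatin and construct DNA cannot be told apart in these lists.

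The CBR-only sites were spread over the genome as single sites. Each chromosome had between 9.76% of its CBR sites CBR-only, on chromosome 19 (45 of 461), and 18.1%, on chromosome 9 (43 of 238), and chromosome 1 had the most, 95 of 572. The median distance to the nearest Empty BAF site was 68.9 kb, with quartiles of 21.4 and 209 kb, and 22 sites (2.73%) lay within 1 kb of one. The nearest Empty peak of either subunit was closer, at a median of 22.1 kb. After joining sites closer together than the default stitching distance of super-enhancer callers, 767 CBR-only sites stood alone and 19 regions held 2 sites each, with none holding more.

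The shared sites included the strongest peaks of the CBR lists. By summed rank these were chr5:10022-11775, chr1:121484062-121485424, chr12:133841523-133841891, chr13:110076478-110076689 and chr12:95186-95736. Both subunits had peaks there in all 7 library pairs. The SMARCA4 and SMARCC1 folds at the chromosome 13 site, 55.6 and 57.8, were the highest of the 5, over only 212 bp. The sites on chromosomes 5 and 12 lay at or within 21.3 kb of the first or last peak of their chromosome. Regions of artefactually high signal were not filtered out here, and their part in these sites was not tested.

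Few of the sites that both Empty replicates had were missing from CBR cells. Of 3178 sites of Empty replicate 1 at which replicate 2 also had both subunits, CBR cells had neither subunit at 193, which is 6.07% (5.29 to 6.96%), 1 subunit at 494 (15.5%) and both at 2491 (78.4%). Where CBR cells had a peak of 1 subunit, it was SMARCA4 at 275 sites and SMARCC1 at 219. Without the requirement that both replicates have the site, the share without CBR subunits was 9.05% for replicate 1 (371 of 4101) and 27.4% for replicate 2 (1770 of 6468). The CBR sites met no such requirement, and 20.4% and 20.1% of them had no subunit peak in replicates 1 and 2. With equal list lengths, Empty-only sites were 8.54% and CBR-only sites 9.46%, so the shares were close. Of the same 3178 sites, neither subunit had a peak at 1.98% in DBDmut, 9.47% in delIDR1, 2.33% in DDX4 and 2.14% in WT cells, so CBR lay between delIDR1 and the other 3.

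The 193 Empty-only sites, chosen by overlap in the same way, were weak in the Empty lists and mostly acetylated in CBR cells. The median SMARCA4 rank in Empty replicate 1 was 3880 at Empty-only sites and 1647 at sites where CBR cells had both subunits. H3K27ac met 154 of the 193 (79.8%) in CBR cells, against 91.7% and 98.4% in Empty cells, with 91.8% in CBR cells, against 94.7% and 97.1% in Empty cells, over all 3178. Both subunits had peaks at 105 of them (54.4%) in DBDmut, 38 (19.7%) in delIDR1, 91 (47.2%) in DDX4 and 57 (29.5%) in WT cells, against 90.0%, 66.7%, 82.1% and 79.4% of all 3178 in the same order. The sites missing in CBR cells were thus also less often BAF sites in each of the other constructs, and 1 of the 193 had no subunit peak in any of these 4. The strongest was chr13:81536336-81536583, with no subunit or H3K27ac peak in CBR cells, against SMARCA4 folds of 15.1 and 11.9 in the Empty replicates. CBR cells also had no H3K27ac at chr10:17258386-17258536 and chr1:161503348-161503567, but had it at chr2:224006698-224007271 and chr8:17476233-17476561, the other two of the 5 strongest.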

How the data were processed

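CUT&Tag of AN3CA cells used antibodies to SMARCA4, SMARCC1 and H3K27ac and a commercial kit protocol, per the labels' protocols. The submitters' processing notes name hg19 and bcl2fastq, while aligner, peak caller, control and duplicate handling are not stated there or in the labels. The authors deposited 1 narrowPeak list per library, with the fold enrichment at the summit (a ratio to local background) and the deposited -log10 p-value and -log10 q-value of each peak. No read counts were used, so depth was derived here: fold and p-value together fix a Poisson pileup and its background, and at least 99.5% of peaks gave a whole pileup within 0.001 in -log10 p. The lowest background shared by at least 50 peaks, divided by the width of the shortest peak of the list, gave fragments per kb. For SMARCA4 that background was 0.108 in CBR cells, against 0.133 and 0.315 in Empty replicates 1 and 2. The shortest SMARCA4 peak was 91 bp wide in CBR cells, against 108 and 162 bp.

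Samples were grouped by the titles. Overlap needed 1 bp. Peak numbers were compared by an exact permutation test over libraries, and shares have Wilson 95% intervals. Peak names open with a stamp whose meaning the labels do not give. No pair of lists was identical (0 pairs). Sites named are the 10 CBR-only, 5 shared and 5 CBR-only without any other construct of smallest summed rank, and the 5 strongest Empty-only. The sites and lists were chosen with earlier results of these data known. The planned annotation by genes, cell type markers and motifs was not run, since the tables used here are of another build than hg19, and no coordinates were converted. The HA library was not used. Alternatives covered the q threshold, list length, overlap rule, chromosomes, site definition and each Empty replicate. Those on H3K27ac lists, and all those for H3K27ac at sites without Empty H3K27ac, were added after seeing the data. The code was tested on simulated data. Python 3.11.15, numpy 2.4.6, pandas 2.3.3, scipy 1.17.1 and matplotlib 3.10.9 were used.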

Additional observations from a re-analysis of the deposited data

Results flagged for a closer look

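The SMARCA4 and SMARCC1 peak numbers moved in opposite directions. CBR cells had 5284.5 more SMARCA4 peaks than the Empty mean and were above both replicates, while the SMARCC1 difference was -2487 and CBR cells were below both replicates. The difference between these 2 effects was not tested.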

How the results depend on the processing

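No paired analysis was possible because replicate numbers exist for Empty alone. Of 103 recomputed values, 64 stayed within the interval of the reported share, within 1.5 times the count or, for peak numbers, in the same direction, 39 moved and 0 reversed. CBR-only sites, 13.4% of CBR BAF sites, were 11.5% at a -log10 q of at least 5, 9.46% with equal list lengths (5453 SMARCA4 and 11744 SMARCC1 peaks), 14.4% by summits within 250 bp and 20.1 to 20.4% with 1 Empty replicate left out. Shared sites were 43.7%, 48.4%, 37.2% and 49.8 to 55.6% in the same order. Empty-only sites were 8.54% with equal lengths and 9.05 to 27.4% with 1 Empty replicate left out. H3K27ac at CBR-only sites was 68.6% at the stricter q, 70.6% with equal lengths and 59.2 to 66.1% with 1 replicate left out, and both subunits in WT were found at 23.2% with equal lengths. A single antibody gave other sites: with SMARCA4 alone, 12616 sites, 57.7% CBR-only, 23.6% shared, 16.9% Empty-only, 33.5% of CBR-only sites acetylated and 16.5% in WT, and with SMARCC1 alone 11744 sites, 34.4%, 46.5%, 39.5% and 37.2% acetylated. Of CBR-only sites without Empty H3K27ac, the share acetylated in CBR was 40.3% at the stricter q, 45.5% with equal lengths, 5.37% with SMARCA4 alone (4.90% at the other sites), 12.1% with SMARCC1 alone, and 27.2 to 44.5% with an Empty replicate left out. With Empty replicate 2 left out for H3K27ac only it was 45.4%. At the other CBR sites this share, 4.78%, was 6.498 to 28.2% with an Empty replicate left out, 8.0% and 30.6% with replicate 1 or 2 left out for H3K27ac only, and 8.46% with equal H3K27ac lists. The CBR minus Empty peak numbers kept their direction in every alternative run, SMARCA4 from 3406 to 7163 and SMARCC1 from -3382 to -1592 with 1 replicate left out. The cause of these shifts was not tested. With 1 CBR library per antibody and a median of 8 fragments under a SMARCA4 summit, a missing peak shows only that none was called at this depth.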
